A study of Limonium bicolor with 5 samples.

Results

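Stage D of leaf development in Limonium bicolor, a salt-secreting plant, was compared with stage B across the whole deposited gene table. Stage B is labelled as the leaf in which salt glands have differentiated, and stage D as the leaf in which the epidermis has differentiated. Both stages were taken whole, so the comparison used 2 of the 5 libraries of the series and all 18327 genes of its table, and stage C, labelled for stomata, was left out. The plants were in tissue culture, the tissue was the first true leaf, and poly(A) RNA was sequenced from 4000 pooled leaves for stage B and 1000 for stage D. No genotype, salt treatment, harvest time or leaf age is given in the sources used here. Stage A, the undifferentiated leaf (5000 leaves), and stage E, the mature leaf (1000 leaves), share no library with this comparison, and their values stand beside it as a separate pair. Each stage is 1 column, although the labels speak of 2 lanes per stage as biological replicates, so no spread between replicates was known and no test was made.

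Salt glands are multicellular epidermal structures that secrete ions through pores in the cuticle, and they differentiate early in a young leaf of this genus. A leaf first grows by cell division, which needs DNA replication, histones and many ribosomes. It then grows by cell expansion while plastids mature, and becomes an exporter of sugar as its veins are completed. The labels do not separate these processes from the cell type that names a stage. Gene names here are those of the Arabidopsis loci that the table pairs with each Limonium gene, and the roles given are known from Arabidopsis or flowering plants in general.

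Levels are RPM, reads of a gene scaled to the reads of its library, recovered as 16556653 reads for stage B and 16367754 for stage D. RPM carries no division by gene length, so levels are compared only for the same gene or list between stages. A gene was called higher or lower where log2(RPM + 1) in stages D and B lay 1 or more apart, a change of about 2-fold, and the higher stage reached 5 RPM. List counts are out of all measured members, whatever their level, and are to be read beside the shares of all tested genes that follow. A single member of a gene family is uncertain where close copies could share reads. Of 16915 genes with at least 1 RPM in either stage, 1911 were higher in stage D (11.3%) and 3537 were lower (20.9%). The median difference of all these genes was -0.35 on the log2 scale. After median-of-ratios scaling of the 2 libraries, which moved every ratio by 0.37 on the log2 scale, the median was -0.02, and the split turned to 2721 higher (16.1%) and 2157 lower (12.8%). All 1911 higher calls and 2157 of the 3537 lower calls stood under both scalings, and a named gene whose lower call needs the deposited scaling is marked as such. Where the whole counting interval of the fold had to lie at 2-fold or more, 1656 genes were higher (9.79%) and 2878 lower (17.0%). At 4-fold, 704 genes were higher and 918 lower, and at 10-fold 137 were higher and 195 lower.

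The stage D library was more concentrated in few genes. The 100 most abundant genes held 12.1% of reads in stage B and 26.1% in stage D. A union of 181 genes of photosynthesis, photorespiration, pigments, carbonic anhydrases and plasma membrane aquaporins held 3.52% of reads in stage B and 19.2% in stage D. These shares are part of what sets the deposited RPM of every other gene, and the part was measured only through the scalings. By Arabidopsis chromosome of the paired locus, between 10.1% and 12.1% of tested nuclear genes were higher and between 19.8% and 21.9% lower. Of tested plastid loci 32.5% were higher and 1.20% lower, and of mitochondrial loci 0% were higher and 21.1% lower. Chromosome 1 held 25.3% of reads in stage B and 28.3% in stage D against 40.4% in stage C.

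**Figure D1:**
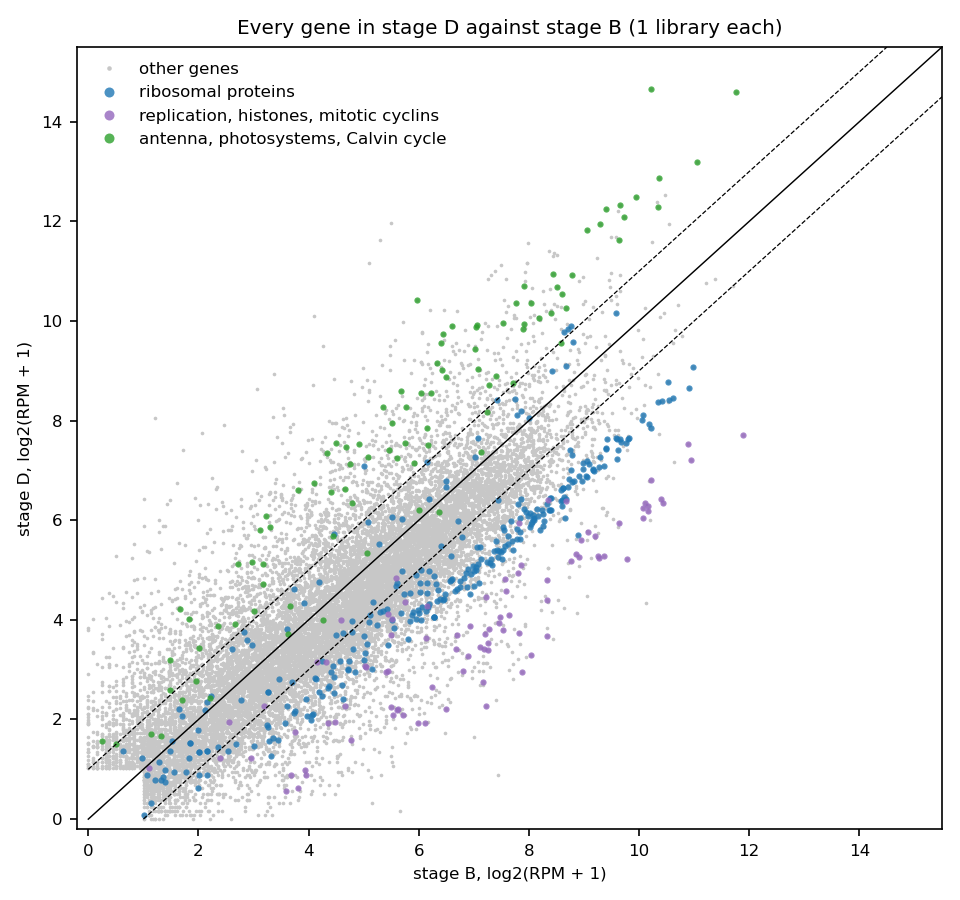
Each point is 1 of the 16915 genes with at least 1 RPM in stage B or D, with log2(RPM + 1) in stage B on the x axis and in stage D on the y axis. The solid line marks equal levels and the dashed lines a difference of 1. Green points (antenna, photosystems, Calvin cycle) lie mostly above the upper line, while blue (ribosomal proteins) and purple points (replication, histones, mitotic cyclins) lie mostly below the lower line.

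Genes of photosynthesis were higher in stage D. All 20 light-harvesting antenna proteins of the table were higher, with a median difference of 2.46, and their summed level went from 7268 RPM in stage B to 36516 RPM in stage D. Among photosystem II genes 33 of 42 were higher and among photosystem I genes 13 of 15. Of the photosystem II genes, 16 are plastid or mitochondrial loci, 11 of them higher, although poly(A) RNA was sequenced. In the Calvin cycle list 12 of 17 were higher, and none was lower in these lists. The Calvin cycle list was made from description words and also holds AT2G34590, AT3G13450 and AT5G50850, which are not enzymes of that cycle. Rubisco activase (AT2G39730), which keeps the carbon-fixing enzyme active, showed the largest gain in RPM of all named genes, from 1185 RPM in stage B to 25701 RPM in stage D, or 21.7-fold (interval 21.4 to 22.0). Its level was 326 RPM in stage A, then 7656 in stage E. Photosystem I subunit F (AT1G31330), which docks plastocyanin, came next, from 3465 to 24809 RPM. In bulk leaves, more mesophyll cells and more of these transcripts per cell cannot be told apart.

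Carbonic anhydrases held 3 of the 4 largest rises among named genes on the log2(RPM + 1) scale, an order that differs for plain ratios of RPM. These enzymes interconvert carbon dioxide and bicarbonate, and those of the beta class are abundant in leaf mesophyll. Carbonic anhydrase 1 (AT3G01500) went from 44.3 to 4009 RPM, a rise of 90.6-fold (interval 84.2 to 97.5). Carbonic anhydrase 2 (AT5G14740) went from 38.1 to 3179 RPM and beta carbonic anhydrase 4 (AT1G70410) from 16.2 to 1098 RPM. The stage D over stage B ratios of 6 beta-class loci ran from 1.89 to 90.6, and 5 of the 6 were higher. Reads of close copies could have been shared among these loci, so the sum is the safer value: 153 in stage B and 8547 RPM in stage D, with 38.1 RPM in stage A, then 1284 in stage E. The whole list of 18 carbonic anhydrases had a median of -0.29 (0.07 after scaling) with 5 members higher and 1 lower.

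Around the carbon-fixing core, photorespiration followed the same direction. This pathway recovers the carbon of 2-phosphoglycolate, a by-product of Rubisco, through chloroplast, peroxisome and mitochondrion. Of 18 genes 13 were higher and none lower, and alanine:glyoxylate aminotransferase (AT2G13360) rose 13.9-fold (interval 12.7 to 15.2), from 32.3 to 449 RPM. In pigment metabolism 4 of 13 tetrapyrrole and chlorophyll genes (7 after scaling) and 5 of 9 genes of the carotenoid list were higher. The first list also holds AT3G44880 and AT5G43860, which act in chlorophyll breakdown. The carotenoid list also holds AT1G06570, an enzyme of plastoquinone and tocopherol synthesis that is among the higher ones. The magnesium chelatase subunit chlH (AT5G13630), at the branch point to chlorophyll, went from 365 to 2571 RPM, and zeaxanthin epoxidase (AT5G67030), an enzyme of the xanthophyll cycle, from 109.7 to 556 RPM. Of the 18 genes of cytochrome b6f, plastocyanin, ferredoxin and plastid ATP synthase, 8 were higher (14 after scaling) and 1 was lower. The lower one, ferredoxin 3 (AT2G27510), known in Arabidopsis from non-green tissue, fell from 168 to 38.6 RPM while both leaf-type ferredoxin-NADP(+) oxidoreductases rose, AT5G66190 from 69.6 to 669 RPM and AT1G20020 from 86.7 to 783 RPM.

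Starch genes moved in both directions, and sugar transporters were higher or not called. Genes described as beta-amylases had the largest rises of the starch list. AT5G18670, described as beta-amylase 3, rose 52.3-fold (interval 44.6 to 61.8), from 9.30 to 487 RPM. A different locus, the chloroplast beta-amylase AT4G17090, which releases maltose from starch, went from 21.6 to 246 RPM. The starch branching enzymes, which build amylopectin, fell: 2.1 (AT2G36390) from 189 to 35.3 RPM and 2.2 (AT5G03650) from 205 to 28.7 RPM. Alpha-amylase-like 3 (AT1G69830), also of starch breakdown and picked after its values were seen, went from 119 to 55.3 RPM, a call on deposited RPM alone. Over the list 8 of 32 genes were higher and 5 lower, and its median of -0.10 became 0.26 after scaling. Of 33 sugar transporters 19 were higher and none lower. The MtN3 family, whose members include the sugar exporters of phloem loading, held the largest rises: AT3G48740 went from 2.30 to 169 RPM with 992 RPM in stage E, and AT5G23660, a homolog outside the counted list, from 3.20 to 215 RPM with 1026 RPM in stage E. The sucrose-proton symporter AT1G22710 (SUC2), which loads sucrose into phloem companion cells, went from 13.6 to 51.2 RPM. For trehalose metabolism 9 of 12 genes were higher and for sucrose synthesis and cleavage 6 of 26, with none lower in either.

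The circadian clock genes differed between the libraries, and some antenna, chlorophyll and starch genes also follow the day in Arabidopsis. The morning genes LHY (AT1G01060) and CCA1 (AT2G46830) went from 27.3 to 137 RPM and from 5.62 to 28.7 RPM. The evening genes moved the other way: TOC1 (AT5G61380) fell from 8.64 to 0.244 RPM and GI (AT1G22770) from 71.9 to 21.3 RPM. In stage E the pattern was opposite to stage D, with LHY at 1.08 RPM and TOC1 at 29.2 RPM. Of 14 clock genes, 3 were higher (LHY, CCA1 and RVE8), 3 lower (TOC1, GI and ELF3) and 8 not called. The antenna list summed to 36516 RPM in stage D, 3529 RPM in stage E and 2824 RPM in stage A. In stage E chlH stood at 96.3 RPM. The Calvin cycle list was also lower in stage E than in stage D, with 48770 RPM in stage D, 17374 in stage E and 2125 in stage A. The part of harvest time in the stage D values was not tested.

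Genes that make proteins in the cytosol were lower in stage D. Of 311 ribosomal proteins 215 were lower and 6 higher, with a median of -1.77, or -1.42 after scaling with 194 lower and 14 higher. Their summed level went from 64156 RPM in stage B to 23229.7 RPM in stage D, close to the 22982 RPM of stage E. The 22 ribosomal proteins of plastid or mitochondrial loci were not called. These 22 loci together held only 54.1 RPM in stage B, against 37.9 in stage D. Most of them could not have been called lower, because a lower call needs 5 RPM in stage B. No contrast with ribosomes of the cytosol can therefore be drawn from them. The 289 nuclear loci of the list also include plastid-type proteins, such as the L12 proteins described below. Nucleolar and ribosome assembly proteins were lower in 21 of 25 cases with none higher, and their median was -1.66: fibrillarin 1 (AT5G52470), which methylates ribosomal RNA, went from 589 to 57.8 RPM, and a NOP56 homolog (AT1G56110) of the same particle from 528 to 54.0 RPM. The list of TCP-1/cpn60 chaperonins had 8 of 13 members lower and none higher. It mixes TCP-1 proteins, which fold actin and tubulin in the cytosol, with cpn60 proteins of plastid type in Arabidopsis. The latter are AT3G13470, AT5G56500, AT1G26230 and AT5G18820, so the count is not one of cytosolic chaperonins alone. Proteasome subunits were lower in 21 of 31 cases under the deposited scaling and in 10 after scaling. Pentatricopeptide repeat proteins, which process organelle RNA, were lower in 84 of 236 cases and higher in 5, or 38 and 9 after scaling.

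Some genes of protein synthesis of plastid type rose. Ribosomal proteins L12-A (AT3G27830), L12-B (AT3G27840) and L12-C (AT3G27850), which in Arabidopsis form the stalk of the plastid ribosome, were higher by ratios of 2.19 to 2.45, and L12-A went from 419 to 917 RPM. As these are close copies, their sum of 874 in stage B and 1923 RPM in stage D is the safer value. Among translation factors 42 of 83 were lower (20 after scaling) and 4 higher (7 after scaling). The elongation factor G AT1G62750, a plastid protein in Arabidopsis, rose 3.48-fold (interval 3.38 to 3.58) and the initiation factor AT1G17220, also plastid, from 124 to 405 RPM. The pentatricopeptide repeat protein AT4G34830, which in Arabidopsis stabilises the mRNA of the large Rubisco subunit, went from 133 to 390.2 RPM.

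Most cell division genes were lower in stage D, and list medians differed by function. DNA replication had 30 of 31 genes lower with a median of -3.01, core and linker histones 40 of 47 with -3.52, and mitotic cyclins A and B 14 of 17 with -3.59. D-type cyclins, which start the cycle, were lower in 5 of 8 cases with a median of -1.51, and their summed level in stage D, 210.3 RPM, lay between 648 in stage B and 28.3 RPM in stage E. Kinesins were lower in 14 of 23 cases, chromosome segregation genes in 18 of 23 and genes of the cyclin-dependent kinase list in 7 of 13, with none higher. That last list was made from description words and also holds AT1G47210, AT2G27960 and AT4G30820, which are not kinases in Arabidopsis. Of these AT1G47210, a cyclin, is among the lower ones, from 36.4 to 3.18 RPM. Topoisomerase II (AT3G23890), which separates sister DNA strands, fell 24.2-fold (interval 22.3 to 26.4), from 883 to 36.4 RPM, and reached 5.95 RPM in stage E. The kinase CDKB2;2 (AT1G20930), active at entry into mitosis, fell from 345 to 11.2 RPM. Syntaxin 111 (AT1G08560), the cytokinesis-specific SNARE of the cell plate, fell from 94.0 to 5.99 RPM. Histone H2A 6 (AT5G59870) showed the largest loss in RPM of all named genes, from 3788 to 207 RPM, with 2964 RPM in stage A, then 83.1 in stage E.

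Regulators of the cycle moved in both directions, and inhibitors were found on both sides. The activators of mitotic genes MYB3R1 (AT4G32730) and MYB3R4 (AT5G11510) fell from 56.5 to 4.40 RPM and from 45.1 to 3.05 RPM, and the S-phase factors E2FA (AT2G36010) and E2FB (AT5G22220) from 23.3 to 4.09 RPM and from 40.7 to 8.49 RPM. The inhibitors of cyclin-dependent kinases KRP1 (AT2G23430) and KRP7 (AT1G49620) rose, from 3.50 to 12.8 RPM and from 6.76 to 30.2 RPM. The other KRP loci of the list, AT3G19150 and AT5G48820, were not higher. WEE1 (AT1G02970), a kinase that inhibits cyclin-dependent kinases, fell from 24.0 to 3.79 RPM. The CCS52A1 (AT4G22910) and CCS52A2 (AT4G11920) activators of the anaphase-promoting complex, known for the switch to endoreduplication, had differences of 0.45 and 0.25 and were not called, while CCS52B (AT5G13840), which acts in mitosis, fell from 70.1 to 11.0 RPM. In all, 8 of the 16 cell cycle control genes were lower and 2 higher.

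Transcription factors of leaf growth and leaf sides were lower. Of 23 GRF, TCP and YABBY factors 11 were lower and none higher. YABBY factors such as YAB2 (AT1G08465) are counted again among the factors of leaf sides below, so these counts overlap. Among 25 organ growth regulators 12 were lower and 1, the growth-restricting DA1 (AT1G19270), higher, from 9.84 to 21.1 RPM. KLU (AT1G13710), a P450 enzyme that prolongs organ growth, fell 59.9-fold (interval 42.9 to 86.2), from 128 to 2.14 RPM, after 558 RPM in stage A. Its relative CYP78A10 (AT1G74110) had the deepest fall of all named genes on the log2(RPM + 1) scale, from 172 to 0.855 RPM. The PLATZ factor AT1G31040, whose plain ratio was larger, went from 49.5 RPM to 2 reads, or 0.122 RPM, in stage D. AINTEGUMENTA (AT4G37750), which maintains growth competence, fell from 169 to 19.4 RPM and GRF5 (AT3G13960), which promotes cell proliferation in leaves, from 67.6 to 3.36 RPM. For leaf sides 10 of 13 factors were lower, 7 after scaling, with none higher. YAB1 (AT2G45190) and YAB3 (AT4G00180) of the lower side went from 77.6 to 4.64 RPM and from 34.7 to 0.244 RPM, and PHB (AT2G34710) of the upper side from 58.0 to 12.8 RPM. KAN1 (AT5G16560) and KAN2 (AT1G32240), also of the lower side, had differences of -0.54 and -0.32 and were not called.

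**Figure D2:**
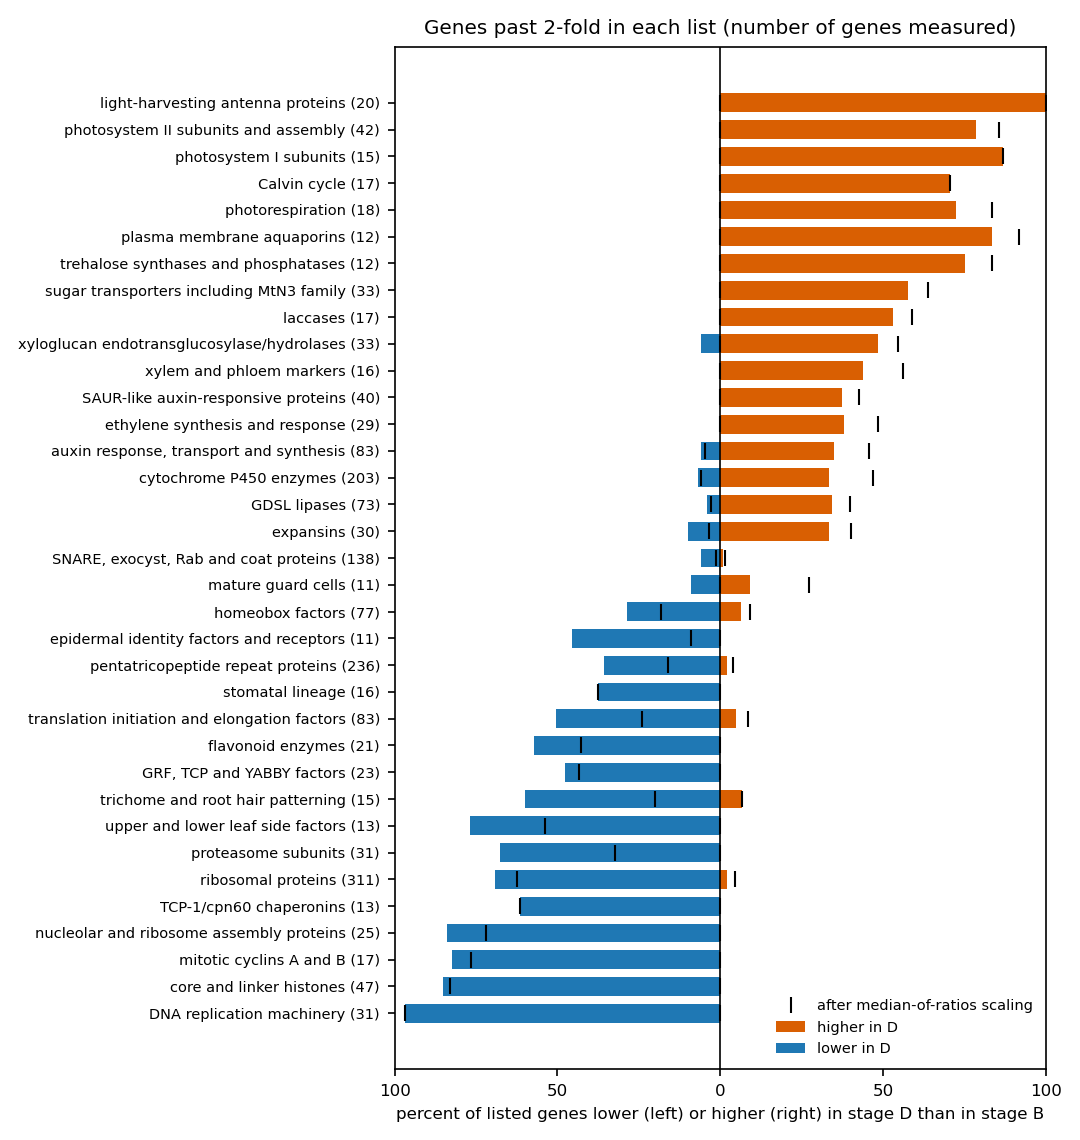
Bars give the percent of each list's measured genes that were higher (orange, right) or lower (blue, left) in stage D than in stage B by the 2-fold rule on deposited RPM, and black ticks give the same after median-of-ratios scaling. Lists of photosynthesis stand at the top with no lower member, lists of division and ribosome assembly at the bottom with no higher member, and scaling shortens the lower bars of the epidermal, trichome and proteasome lists.

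The label of stage D names the epidermis, and the epidermal identity genes were not higher there. The markers ATML1 (AT4G21750) and PDF2 (AT4G04890), homeobox factors of the outer cell layer, were 51.3 and 41.6 RPM in stage B and 20.6 and 19.4 RPM in stage D. Of 11 epidermal identity genes 5 were lower and none higher, but after scaling 1 was lower, GL2 (AT1G79840), from 13.3 to 3.48 RPM. HDG1 (AT3G61150) and ANL2 (AT4G00730), further factors of this layer, had differences of 0.28 and -0.23. The list median was -0.74 (-0.52 after scaling), beside -0.35 (-0.02 after scaling) for all genes. A smaller share of epidermal cells and less RNA of these genes per cell cannot be told apart, and all 6 epidermal markers held reads in both stages.

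Patterning genes of trichomes and root hairs, which are other outgrowths of the epidermis, were lower in 9 of 15 cases and in 3 after scaling. The calls under both scalings were CPC (AT2G46410), a small MYB that represses hair fate in leaves, from 52.2 to 12.1 RPM, TT8 (AT4G09820), a bHLH partner, from 36.1 to 9.65 RPM, and WER (AT5G14750), an R2R3 MYB, from 63.4 to 19.6 RPM. GL1 (AT3G27920) and GL3 (AT5G41315), the MYB and bHLH that start trichomes in Arabidopsis, went from 11.5 to 4.83 RPM and from 36.1 to 13.7 RPM, which is a call on deposited RPM alone. MYB23 (AT5G40330), a close relative of GL1, was 46.6 in stage B and 42.6 RPM in stage D and was not called, whereas it stood at 7.26 RPM in stage E. The one riser was CPL3 (AT4G01060), another small repressor MYB, from 5.92 to 15.2 RPM.

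In the stomatal lineage, SPCH and the spacing receptors were lower in stage D. Of the later factors FAMA was not called, and MUTE was too low to be called. SPCH (AT5G53210), the factor that opens the lineage, fell 29.1-fold (interval 17.5 to 52.5), from 26.7 to 0.916 RPM. The receptor-like protein TMM (AT1G80080) fell from 14.9 to 1.89 RPM and SCRM2 (AT1G12860), a partner of SPCH, from 48.9 to 10.6 RPM. The receptor kinases ERECTA (AT2G26330), ERL1 (AT5G62230) and ERL2 (AT5G07180), which space stomata and also drive organ growth, fell from 1176 to 62.9 RPM, from 325 to 32.1 RPM and from 196 to 30.4 RPM. MUTE (AT3G06120) and FAMA (AT3G24140), the later factors, were 1.03 and 10.4 RPM in stage B and 1.59 and 6.29 RPM in stage D. A call needs 5 RPM in the higher stage, which MUTE did not reach. The same limit left EPF2 (AT1G34245) uncalled, although it went from 2.17 to 0.367 RPM, a fall of 5.93-fold (interval 2.48 to 17.2). Of 16 genes 6 were lower and none higher under both scalings. Mature guard cell genes had 1 higher and 1 lower among 11, and 3 higher and none lower after scaling. MYB60 (AT1G08810), a guard cell factor, went from 10.6 to 21.8 RPM and the potassium channel KAT2 (AT4G18290) from 6.70 to 13.0 RPM, both called after scaling only, while the outward channel GORK (AT5G37500) went from 37.7 to 15.1 RPM, a call on deposited RPM alone.

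**Figure D3:**
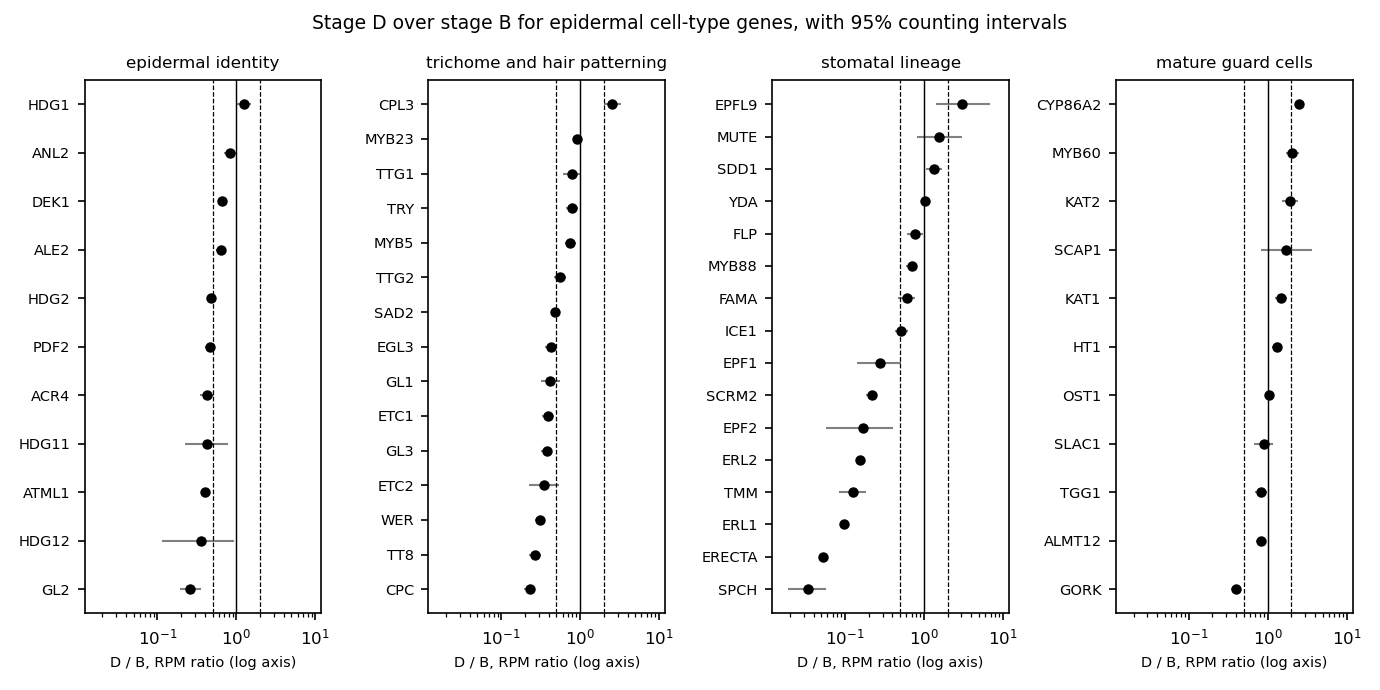
Points are ratios of stage D over stage B in RPM on a log axis for genes with at least 1 RPM in either stage, with bars for the exact 95% counting interval; the solid line marks 1 and the dashed lines 0.5 and 2. Early lineage genes SPCH, ERECTA and ERL1 lie farthest to the left, most trichome patterning genes lie near or left of 0.5, and guard cell genes lie on both sides of 1.

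Cell wall families held higher and lower members. Of 33 xyloglucan endotransglucosylase/hydrolases, which loosen and rejoin wall glucans, 16 were higher, led by member 12 (AT5G57530) from 14.5 to 164 RPM, and 2 were lower on deposited RPM alone, among them member 9 (AT4G03210) from 821 to 351 RPM. Expansins had 10 of 30 higher and 3 lower (12 and 1 after scaling): expansin A2 (AT5G05290) went from 22.8 to 135 RPM and expansin A13 (AT3G03220) from 58.3 to 16.9 RPM. Fasciclin-like arabinogalactan proteins 6 (AT2G20520) and 13 (AT5G44130) rose 51.9-fold (interval 37.0 to 75.2) and 56.8-fold (interval 35.3 to 98.0), and beta-xylosidase 1 (AT5G49360), which trims wall xylan and arabinan, from 1.03 to 85.1 RPM. In the pectin list 12 of 81 were higher and 3 lower, or 21 higher after scaling, beside 11.3% higher (16.1% after scaling) of all tested genes. Cellulose synthase-like D5 (AT1G02730), of a family that acts at the new cross wall, fell from 78.8 to 5.01 RPM in a list with 3 of 37 higher and 3 lower, or 10 higher and 2 lower after scaling.

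Lignin and flavonoid enzymes draw on the same precursors. Laccases, which polymerise lignin, were higher in 9 of 17 cases and lower in none, and laccase 4 (AT2G38080), which acts in vessel walls, went from 4.47 to 20.5 RPM. Among lignin enzymes 8 of 19 were higher and 2 lower (8 and 1 after scaling), with ferulate 5-hydroxylase 1 (AT4G36220), which sets the syringyl type, from 18.5 to 159 RPM. Flavonoid enzymes were lower in 12 of 21 cases (9 after scaling) and higher in none: leucoanthocyanidin dioxygenase (AT4G22880), an anthocyanin enzyme, went from 569 to 157 RPM. Markers of xylem and phloem were higher in 7 of 16 cases and lower in none, with XCP2 (AT1G20850), a protease of maturing vessels, from 31.2 to 149.8 RPM and APL (AT1G79430), a phloem identity factor, from 1.45 to 7.82 RPM. The laccases summed to 237 RPM in stage D and to 47.3 RPM in stage E, and vessel markers XCP1 and XCP2 also were lower in stage E, at 21.6 and 34.0 RPM. The part of vein cells in these values was not tested.

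Cuticle genes moved in both directions. For cutin, GPAT6 (AT2G38110), an acyltransferase of cutin monomers, rose 6.06-fold (interval 5.59 to 6.56), from 43.2 to 262 RPM, and LCR (AT2G45970), a fatty acid hydroxylase, from 70.5 to 308 RPM. HTH (AT1G72970), an oxidoreductase of cutin synthesis, fell 6.47-fold (interval 6.16 to 6.80), from 735 to 114 RPM, and CER5 (AT1G51500), an exporter of wax, from 86.4 to 24.6 RPM. CYP77B1 (AT1G11600), of a P450 family with cutin enzymes, fell from 198 to 6.96 RPM. Of 26 cutin and wax genes 5 were higher and 4 lower (7 and 3 after scaling), and the median of -0.25 became 0.12 after scaling. GDSL lipases, some of which link cutin, were higher in 25 of 73 cases and lower in 3. Lipid transfer proteins had 5 higher (9 after scaling) and 1 lower among 27, and 3-ketoacyl-CoA synthases, which lengthen wax chains, 4 higher and 1 lower among 21.

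Membrane transport genes were counted by family. Plasma membrane aquaporins, the water channels of the cell surface, were higher in 10 of 12 cases, from a summed 4179 RPM to 15467 RPM. Plasma membrane proton pumps, which energise secretion and uptake, were higher in 3 of 10 cases (6 after scaling), with H(+)-ATPase 4 (AT3G47950) from 249 to 591 RPM, while vacuolar proton pumps had none higher and 2 of 22 lower on deposited RPM, but 1 higher and none lower after scaling. The chloride channel family members CLCA (AT5G40890), CLCB (AT3G27170) and CLCC (AT5G49890), which load nitrate or chloride into vacuoles, went from 17.5 to 105 RPM, from 25.9 to 142 RPM and from 41.1 to 135 RPM. HKT1 (AT4G10310), which retrieves sodium from the xylem, rose 5.93-fold (interval 4.50 to 7.94), from 3.62 to 21.5 RPM, and was at 161 RPM in stage E. The plasma membrane sodium exporter SOS1 (AT2G01980) was 153 in stage B and 177 RPM in stage D, and the vacuolar exchangers NHX1 (AT5G27150) and NHX2 (AT3G05030) were 95.9 and 72.8 RPM against 73.1 and 60.4 RPM. None of these 3 was called under either scaling. Of 19 sodium and cation exchangers 2 were higher, near the 11.3% of all tested genes, and of 11 anion channels 3, with none lower. Over the 22 sodium, proton and chloride transport genes 5 were higher and none lower.

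Secretion genes, the SNAREs, exocyst, Rab and coat proteins, were mostly not called between the stage named for salt glands and stage D. Of 138 only 1 was higher and 8 were lower, and after scaling 2 were higher and 2 lower. The median of -0.33 became 0.01 after scaling, and the deepest falls were syntaxins 111 and 112 (AT2G18260), the latter from 10.7 to 0.611 RPM. ABC transporters were lower in 9 of 86 cases and higher in 7, which turned to 6 lower and 12 higher after scaling. AT4G25750 and AT5G52860, transporters of the G group, fell 37.8-fold (interval 27.4 to 53.6) and 28.8-fold (interval 24.4 to 34.4), and AT5G52860 went from 245 to 8.49 RPM. Nutrient transport held some of the sharpest rises. In the list of nitrate, ammonium, phosphate and sulfate transporters 16 of 52 were higher and 7 lower (22 and 4 after scaling). All 5 nitrate transporter 2 loci were higher and summed to 7.25 in stage B and 175 RPM in stage D, a sum that is used because their reads could have been shared. Ferric reduction oxidase 7 (AT5G49740), the chloroplast iron reductase of Arabidopsis, rose from 14.8 to 193 RPM, in a metal list with 7 of 46 higher and 1 lower, or 17 higher and none lower after scaling. Over all tested genes 11.3% were higher and 20.9% lower, or 16.1% and 12.8% after scaling.

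Genes of auxin and ethylene were called higher more often than lower. Of 40 SAUR proteins, small auxin-induced promoters of cell expansion, 15 were higher and none lower, and AT1G29500 went from 3.50 to 79.7 RPM. Other auxin genes had 29 of 83 higher and 5 lower. The auxin response factor AT1G19850 (MONOPTEROS), which acts in vein and organ initiation, fell from 58.2 to 7.33 RPM. For ethylene 11 of 29 were higher and none lower, with the last enzyme of its synthesis, ethylene-forming enzyme (AT1G05010), from 72.6 to 1187 RPM and ACC oxidase 2 (AT1G62380) from 65.8 to 874 RPM. The ethylene list was made from description words and also holds AT1G17870 and AT5G05740. These are plastid proteins in Arabidopsis and not genes of ethylene synthesis or response. One of the 11 higher calls is AT1G17870, from 67.8 to 372 RPM. In the cytokinin list, with 35 genes measured and 27 of them tested, 4 were lower. By either count this is a smaller share than the 20.9% of all tested genes. In this list 1 was higher, against 3 lower and 2 higher after scaling. The lower ones were response regulators induced by the hormone, such as response regulator 4 (AT1G10470), from 31.0 to 6.54 RPM. The CYP707A enzymes, which inactivate abscisic acid, were higher at all 4 loci and summed to 27.7 in stage B and 776 RPM in stage D, with 27.4 RPM in stage A, then 418 in stage E. Genes of abscisic acid synthesis and response had 3 of 25 higher (7 after scaling) and none lower. The count as deposited is near the 11.3% of all tested genes that were higher (16.1% after scaling). Gibberellin genes had 3 higher and 1 lower among 12, or 4 higher and none lower after scaling.

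Further single genes stood out by size. Cytochrome P450 enzymes were higher in 68 of 203 cases and lower in 14, and the 4 CYP707A loci and the CYP78A pair above were at the ends of that range on the log2(RPM + 1) scale. A regulator of systemic acquired resistance (AT4G01895) rose 69.8-fold (interval 64.1 to 76.1), from 33.0 to 2306 RPM. The thaumatin family protein AT2G28790 fell 57.8-fold (interval 51.7 to 64.8), from 1116 to 19.3 RPM, and all 14 thaumatin loci summed to 1399 in stage B and 51.6 RPM in stage D, with 6 lower and none higher. ROTUNDIFOLIA like 14 (AT3G63088), of a small peptide family that limits cell proliferation, rose from 10.6 to 305 RPM. Among homeobox factors 5 of 77 were higher and 22 lower (14 after scaling), and homeobox 1 (AT3G01470) went from 3.93 to 25.6 RPM. B-box factors of light signalling were higher in 5 of 19 cases and lower in none. Late embryogenesis abundant proteins were higher in 12 of 26 cases and lower in 2.

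Presence in 1 stage alone was rare. With at most 3 reads in stage B and at least 5 RPM in stage D there were 13 genes, and with at most 3 reads in stage D and at least 5 RPM in stage B there were 9. The glutaredoxin-like thioredoxin family gene AT2G47870 had 0 reads in stage B and 13.3 RPM in stage D, and the gibberellin-regulated gene AT2G18420 had 0 reads in stage B and 12.8 RPM in stage D, both chosen after their values were seen. A count of 0 in stage B allows up to 0.181 RPM, and in stage D up to 0.183 RPM. Meristem genes were 3 lower and none higher among 10; the shoot markers STM (AT1G62360) and KNAT1 (AT4G08150) were 0.544 and 0.846 RPM in stage B, and the organ boundary factor CUC2 (AT5G53950) fell from 10.4 to 1.16 RPM. Of the 8 root markers none was called. All 10 mesophyll markers, which are photosynthesis genes named above or of the same pathways, were higher, and 44.4 in stage B and 25.8 RPM in stage D were the sums of the root list.

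**Figure D4:**
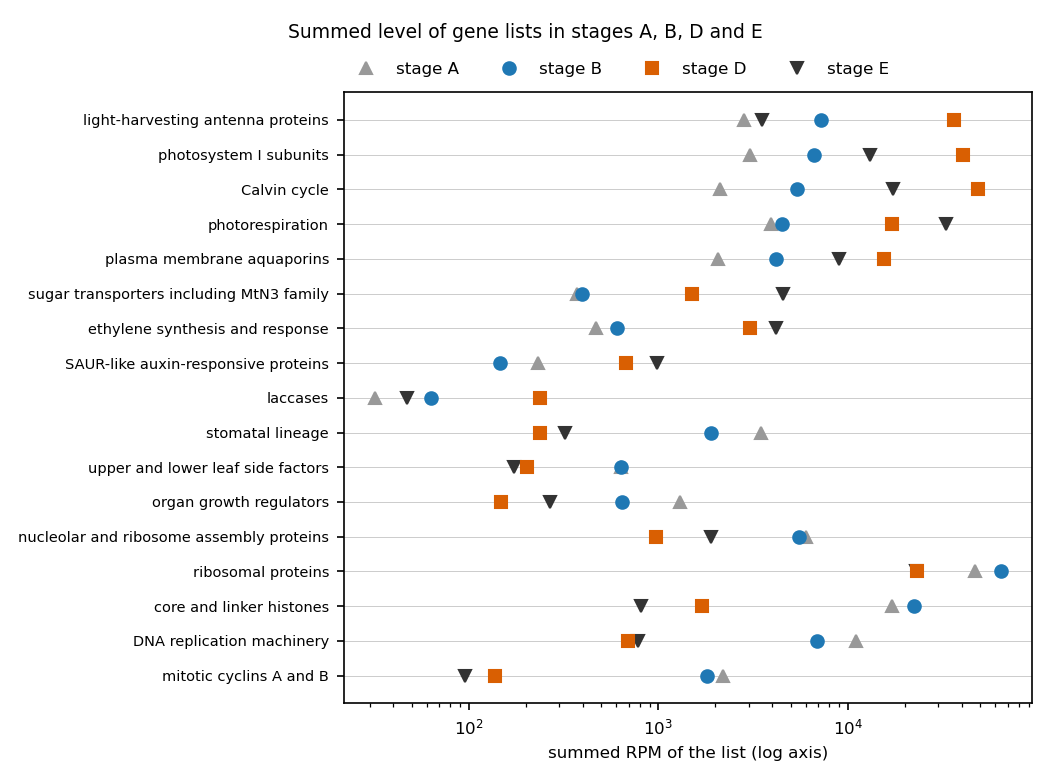
Each row is a gene list, and symbols give its summed RPM in stages A, B, D and E on a log axis, 1 library each. Stage D (orange squares) lies right of stage B (blue circles) for the lists from antenna proteins to laccases and left of it from the stomatal lineage to mitotic cyclins; for antenna proteins and laccases the stage E sum lies between those of stages A and B.

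Many of these genes had the same call in stages A and E. In this separate pair of 1 library each, 3385 of 17141 tested genes were higher in stage E than in stage A (19.7%) and 2481 were lower (14.5%). Of the 1911 genes higher in stage D than in stage B, 1370 (71.7%) were also higher in stage E than in stage A, 34 were lower and 507 neither. Of the 3537 genes lower in stage D, 1748 (49.4%) were also lower in stage E, 57 were higher and 1732 neither. With the 4 libraries scaled together, 1766 of 2789 higher genes and 1471 of 2116 lower genes had the same call in stages A and E, so which direction had the larger shared part turned with the scaling. The shared genes made up 40.5% of those higher in stage E and 70.5% of those lower in stage E. Across 16604 genes tested in both pairs the log2 differences had a Pearson correlation of 0.75 (Spearman 0.71), as a description over genes that share 2 pairs of libraries and are not independent replicates.

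Genes with opposite signs in the 2 pairs included rhythmic, light-harvesting and dormancy-associated genes, picked after their values were seen. LHY was 2.28 in stage D minus stage B and -3.46 in stage E minus stage A on the log2(RPM + 1) scale, whereas TOC1 was -2.95 in the first pair and went from 11.3 RPM in stage A to 29.2 RPM in stage E. The antenna gene LHCB2.3 (AT3G27690) was 2.19 and -2.80. The dormancy-associated gene AT1G28330, named for its presence in dormant buds, went from 147 RPM in stage B to 22.1 RPM in stage D, and from 74.6 RPM in stage A to 1498 RPM in stage E. The dehydrin AT1G54410 fell 12.1-fold (interval 11.2 to 13.0), from 589.8 to 48.9 RPM, and stood at 1450.3 RPM in stage E. The starch branching enzymes 2.1 and 2.2, low in stage D, were 406 and 595 RPM in stage E.

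**Figure D5:**
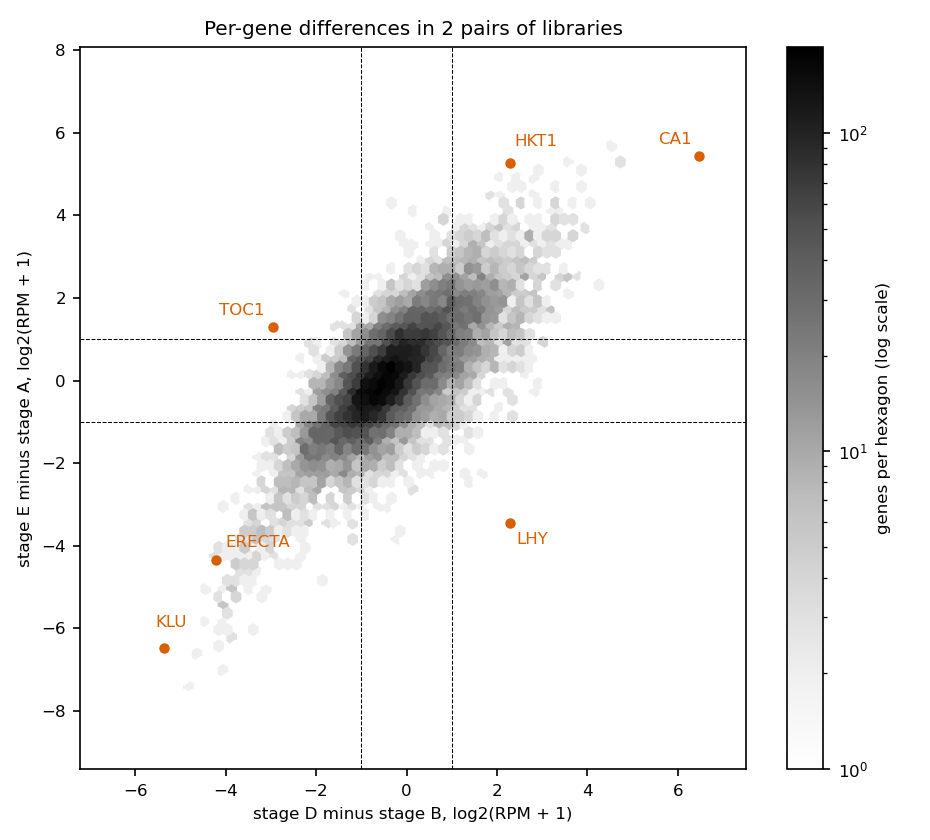
Each hexagon counts genes (grey, log scale) by the difference of stage D and stage B (x axis) and of stage E and stage A (y axis), both on the log2(RPM + 1) scale; dashed lines mark differences of 1 and orange points name single genes. Most genes beyond the dashed lines of both axes lie in the upper right or lower left, with CA1 and HKT1 high in both pairs and KLU and ERECTA low in both, while LHY and TOC1 lie in the opposite corners.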

How the data were processed

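Poly(A) RNA of first true leaves was sequenced, 1 table column per stage. Per the file headers the deposited values are RPKM, but they behave as RPM: 100% of values in every stage were whole multiples of 1 read within 0.001 reads, which gave the reads behind each library (from 5939374 in stage A to 16556653 in stage B). Which aligner and assembly were used, and how reads with several matches were counted, is not given in the sources used here. Each of the 5 value columns names its stage, and 18327 genes were used.

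Stages were compared as log2(RPM + 1) of the deposited RPM values, with a call at a difference of 1 and 5 RPM in the higher stage. Intervals of folds are exact 95% Clopper-Pearson intervals on recovered reads and cover counting error only. As a count-based rule, the whole interval had to lie at 2-fold or more, which called 1656 genes higher (9.79%) and 2878 lower (17.0%). With 1 library per stage no test and no p-value was computed. Scalings were median-of-ratios and TMM (edgeR 4.0.16, R 4.3.3); other steps used Python 3.11.15 with numpy 2.4.6, pandas 2.3.3 and scipy 1.17.1, tested on simulated data. Lists were made from description words or Arabidopsis loci, symbols were paired with loci by hand, and 71 lists are described. The comparison, its lists and the rule for named genes were chosen with earlier results of these data known, and list words were tightened after descriptions and values had been seen. The rule took the 20 named genes with the largest rise and the 20 with the largest fall under both scalings, the 15 with the largest gain and the 15 with the largest loss in RPM, and up to 4 called members per direction in each list. It also took every measured member of the epidermal, trichome, stomatal, guard cell, organ growth, clock and salt lists. Genes of the polarity, cell cycle control, vessel and meristem lists that this rule does not take were named after their values were seen. Stage C was left out of all calls and lists, and entered only the recovery of reads and the shares of reads by chromosome. Alternatives tried were other scalings, pseudocounts, minimum levels, a 4-fold size, the count-based rule and sums over genes that share a description.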

Additional observations from a re-analysis of the deposited data

How the results depend on the processing

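No paired analysis was possible because each stage has 1 library, and for the same reason no library could be left out. The count of genes higher in stage D stayed within 1.5 times of 1911 under all scalings, pseudocounts and minimum levels tried and under the count-based rule (1316 to 2789). It was 704 at 4-fold and 710 when genes that share a description were summed. The count of lower genes depended on scaling: 3537 as deposited, 2157 after median-of-ratios scaling of stages B and D, 2116 over stages A, B, D and E, and 2150 with TMM. It was 918 at 4-fold and 1481 over shared descriptions. With library totals that leave out the photosynthesis genes, a choice added after seeing the data, 2445 were higher and 2517 lower.

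The median of all genes, -0.35 as deposited, was -0.018 after scaling of stages B and D, 0.0014 over stages A, B, D and E, -0.12 without the photosynthesis genes, -0.24 with a pseudocount of 5 RPM, -0.28 with no minimum and -0.40 at a minimum of 5 RPM. List medians that changed sign under scaling of stages B and D, then over 4 stages, were those of starch (0.26, 0.28), vacuolar proton pumps (0.022, 0.043), sodium and cation exchangers (0.17, 0.19), ABC transporters (0.33, 0.35), secretion genes (0.0094, 0.030), cuticle (0.12, 0.14) and carbonic anhydrases (0.073, 0.095). At a minimum of 5 RPM the carbonic anhydrase median was 0.37 and the clock median -0.10. None of the 534 called named genes changed sign under any alternative, and after median-of-ratios scaling of stages B and D 50 were no longer called. A level near 5 RPM rests on about 82 reads in stage D, as for cellulose synthase-like D5 at 5.01 RPM. Single members of families could share reads.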
